A study of Mus musculus with 6 samples.

Results

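The genes described here are 10 markers by which neural crest cells, stem cells and their tumour counterparts are commonly recognised: Cd24a, Cd44, Prom1, Ngfr, L1cam, Alcam, Cd34, Thy1, Nes and Mcam. Every probe set that the array annotation gives to exactly 1 of these symbols was taken, which made 24 probe sets of the 45037 tested and 10 genes of the 18193 tested. The cells were of the mouse melanoma line 4434, which carries a Braf mutation, and were taken at day 20 after induction of reprogramming factors. All cells carried a lentiviral vector with Oct4, Sox2 and Klf4 under a doxycycline-inducible promoter together with a blasticidin resistance gene, and another vector for the transactivator with the red fluorescent protein mCherry. The + dox cells were given doxycycline and, as the methods describe, were selected with blasticidin, while the − dox cells held both vectors without doxycycline. Doxycycline, selection and the 3 factors therefore cannot be told apart. Total RNA of 3 + dox and 3 − dox samples was hybridised to Affymetrix mouse expression arrays, which read RNA from all cells of a culture, so fewer cells of a type and less RNA per cell cannot be told apart.

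Neural crest cells leave the dorsal neural tube, migrate through the embryo and give rise to melanocytes, peripheral glia and neurons. Migration depends on surface proteins that bind neighbouring cells and the matrix, among them L1cam, Alcam and Mcam of the immunoglobulin superfamily and the hyaluronan receptor Cd44. Other proteins in the group serve mainly as labels: Cd24a, Thy1, Prom1 and Cd34 are used to sort stem cells, Ngfr marks neural crest cells, and Nes (nestin) is an intermediate filament protein of neural progenitors. Nestin is cytoplasmic and is the only protein in the group that is not at the cell surface.

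The values are log2 expression values made by RMA, so a difference of 1 is a 2-fold difference. They ran from 2.08 to 14.44, and the lower quartile of an array was 3.84 to 3.90, a level under which signal and background are hard to separate. Array medians lay between 5.33 and 5.37. On the first principal component of the genes (63.2% of the variance) + dox array 1 scored -10.5, between + dox arrays 2 and 3 at -41.9 and -54.4 and the − dox arrays at 30.7 to 39.6. Over all genes this array correlated with + dox array 2 at 0.9867 and with − dox array 2 at 0.986, and − dox array 1 stood apart on the second component, at 40.7 against -19.1 and -19.3. Where leaving out an array numbered 1 ended or gave a call of a named gene, this is said beside the result. The labels do not say that the samples of a group were grown separately, and the study's general statement on independent experiments does not name the arrays, so the p-values cover only the spread between these samples, possibly a technical one, and precision is limited by the number of arrays. The array did not show the induced factors clearly: none of the 3 passed the test, Pou5f1 (Oct4) reading 4.77, 5.32 and 4.92 in + dox and 4.13, 4.21 and 4.42 in − dox arrays (adjusted p = 0.0566), while Sox2 differed by -0.71 (0.113) and Klf4 by -0.58 (0.45). Pou5f1 passed without + dox array 1 (0.87, adjusted p = 0.0351) and Sox2, lower in + dox cells, without − dox array 1 (-0.88, 0.0486). Klf4 read 9.23, 7.85 and 7.85 in the − dox arrays and differed by -0.12 without the first of them (0.698). Whether these probe sets, which mostly read the ends of natural transcripts, detect the vector's RNA is not known from the sources used here, so the labels could not be checked in this way. Of 13 melanocyte markers measured, Tyr, Mlana and Gpr143 lay under the lower quartile on all 6 arrays, Tyrp1 lay under it on 5 of 6, and Dct averaged 4.41 with and 4.36 without doxycycline, below the array medians, so several pigment genes that define melanocytes were at or near background in both groups. Pmel averaged 5.36 and 5.34, Sox10 6.34 and 6.23, and the melanocyte regulator Mitf 6.47 and 7.23. Of the 13, 0 passed the test (0 also at an unadjusted p under 0.05 in limma), with a median change of 0.02, Mitf differing by -0.76 (adjusted p = 0.343) and Mc1r by -0.14 (0.487). Mitf read 8.15 on − dox array 1 against 6.87 and 6.67 on the other − dox arrays, and without that array it differed by -0.30 (0.446).

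Of the 10 genes, only the adhesion molecules L1cam, Alcam and Mcam were called with their brightest probe set above the lower quartile on all 6 arrays. The stretches just upstream of their transcription starts are shown because the induced factors act by binding DNA. The sequences are those of RefSeq for assembly GRCm38.p6, 250 bases each and printed 5′ to 3′ in the direction of transcription, and for L1cam, which has 2 listed starts, the window of the upstream start is shown. Capitals mark the letters CACCC (a KLF-type box) and GGGCGG (a GC box) on either strand, and no match of 1 kind overlapped a match of the other.
L1cam, chrX:73880835-73881084, minus strand: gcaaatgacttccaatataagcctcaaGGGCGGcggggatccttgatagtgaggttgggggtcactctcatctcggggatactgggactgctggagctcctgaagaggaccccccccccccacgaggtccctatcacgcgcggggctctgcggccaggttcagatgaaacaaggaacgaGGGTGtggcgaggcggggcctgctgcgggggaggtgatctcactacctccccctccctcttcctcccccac
Alcam, chr16:52453082-52453331, minus strand: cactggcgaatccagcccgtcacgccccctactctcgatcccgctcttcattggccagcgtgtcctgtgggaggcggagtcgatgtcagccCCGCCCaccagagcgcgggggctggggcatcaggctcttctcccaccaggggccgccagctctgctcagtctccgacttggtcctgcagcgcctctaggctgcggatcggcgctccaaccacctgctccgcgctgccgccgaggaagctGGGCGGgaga
Mcam, chr9:44134408-44134657, plus strand: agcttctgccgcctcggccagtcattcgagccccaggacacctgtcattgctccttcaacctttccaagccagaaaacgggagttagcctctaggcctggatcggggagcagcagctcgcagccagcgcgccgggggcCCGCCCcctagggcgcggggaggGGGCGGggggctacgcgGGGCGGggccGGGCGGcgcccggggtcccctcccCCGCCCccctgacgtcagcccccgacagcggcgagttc
All 3 stretches are rich in G and C, at 63.2% in L1cam, 69.2% in Alcam and 73.6% in Mcam. The GC box stood once in L1cam, 2 times in Alcam and 5 times in Mcam, and 32.7% of all 32851 windows of this length in the table hold it. The CACCC box stood once in L1cam, as its complement GGGTG, and in neither of the other stretches, against 52.0% of all windows. Among the other members, Prom1 held 1 GC box and 2 CACCC boxes, Ngfr 4 and 3, and Nes 2 and 2, while Cd44 and Cd34 held neither. The octamer ATGCAAAT, the form that Oct4 binds, was in none of the 8 members' windows, against 1.6% of all windows, and the SOX core letters ACAAAG and ACAATG, searched on both strands like the octamer, were also in none, against 16.5% and 10.7%. Cd24a and Thy1 had no window in the table. A match of letters is a description of the sequence and not a bound site, and no match says only that these letters were not in these windows.

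Expression of 5 of the 10 genes differed between + dox and − dox cells. Cd24a, L1cam and Cd34 rose and Alcam and Mcam fell, while Cd44, Nes, Ngfr, Prom1 and Thy1 did not pass the test. The test was limma across all genes, with the brightest probe set of each gene and an adjusted p under 0.05. Across all 18193 genes 4.87% were called, with 3.07% higher and 1.8% lower in + dox cells, and the median change was 0.01, beside a median of 0.31 over the 10 members. These shares are also those to set beside the counts of called genes in the lists below. In 7 of the 10 genes the 3 + dox values did not overlap the 3 − dox values, the further 2 being Cd44 and Nes, and 26.9% of all genes had groups that did not overlap. The same 7 had an unadjusted p under 0.05, as did 21.7% of all genes, the share to set beside such counts in the lists below. In a limma fit over all probe sets, 10 of the members' 24 probe sets were called, 6 higher and 4 lower, beside 2.53% of all probe sets, with 1.64% higher and 0.884% lower. Groups did not overlap in 17 of the 24, beside 23.4% of all probe sets. Adjusted p-values of the 10 genes below are from this fit over probe sets unless the fit over genes is named. Those of all other genes, above and below, are from the fit over genes.

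**Figure D1:**
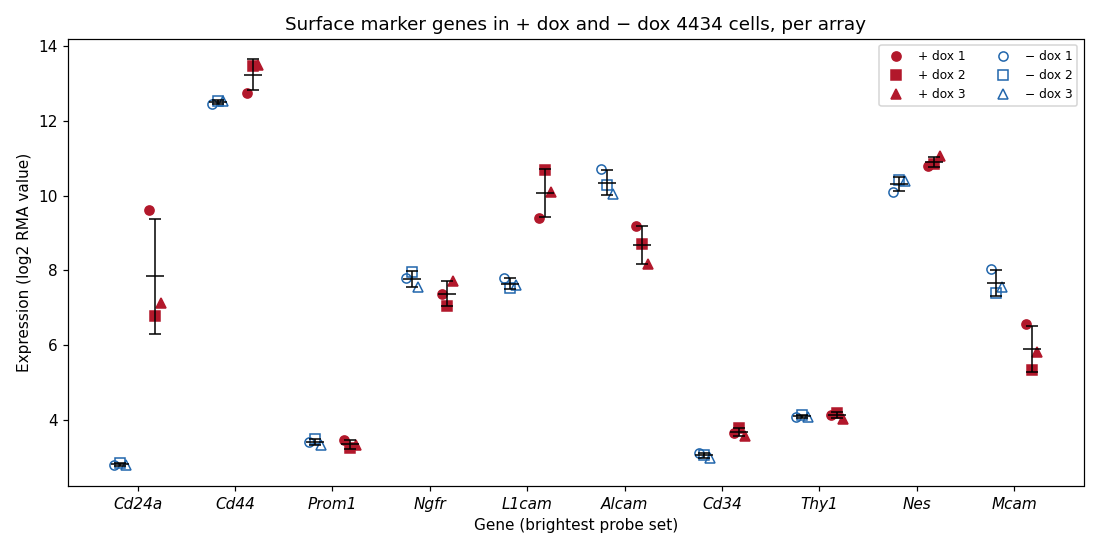
Level of the brightest probe set of each of the 10 genes on each array, in log2 RMA values, with + dox arrays filled and − dox arrays open, the shape giving the array number, and bars giving the mean and SD of 3 arrays. In Cd24a the 3 + dox arrays lie between 6.79 and 9.61 and the − dox arrays between 2.80 and 2.87, while the points of Prom1, Ngfr and Thy1 overlap between groups; heights of different genes cannot be compared, since probe sets differ in brightness.

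**Figure D2:**
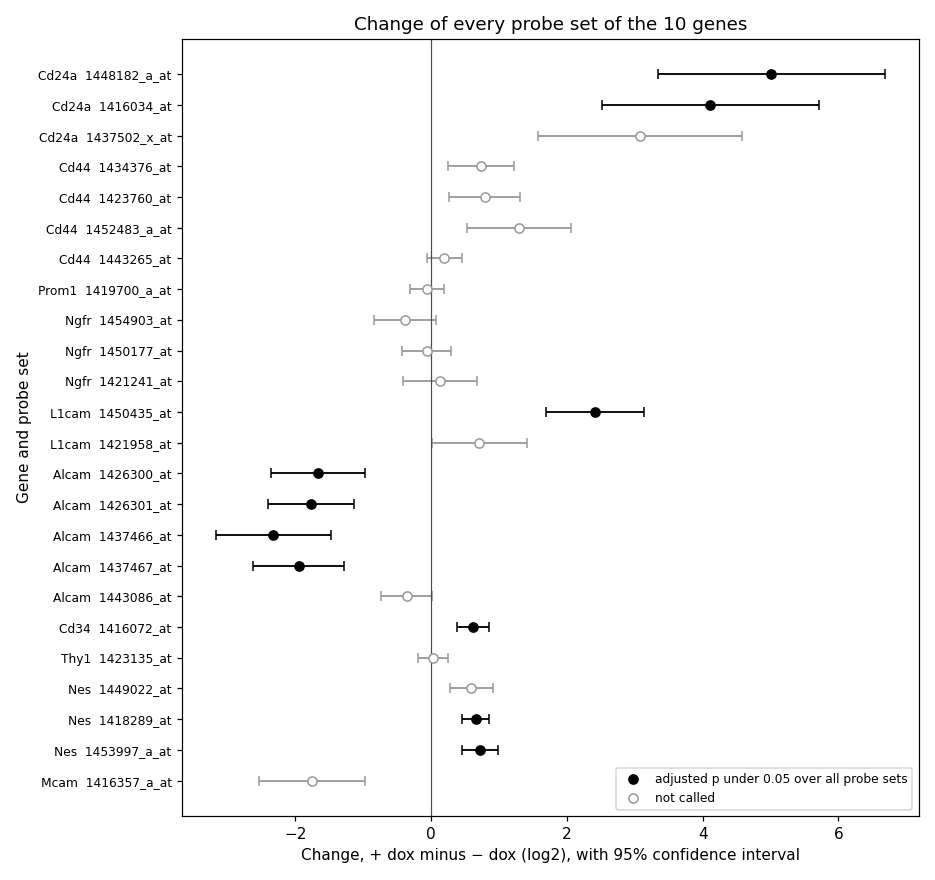
Change of each of the 24 probe sets, + dox minus − dox in log2 units, with its 95% confidence interval from limma; filled points are the 10 probe sets called over all probe sets. All 3 probe sets of Cd24a lie right of 0 and all 5 of Alcam left of it, while the 3 of Ngfr lie on both sides.

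Cd24a, which encodes a small mucin-like protein held in the membrane by a lipid anchor, showed the largest change of the 10 genes. Its brightest probe set, 1448182_a_at, read 9.61, 6.79 and 7.12 on + dox arrays 1, 2 and 3 and 2.80, 2.87 and 2.81 on the − dox arrays. All 3 − dox arrays were under the lower quartile, so the gene was near background without doxycycline and well above it with doxycycline on every array. The mean was 7.84 ± 1.54 (SD, n = 3) in + dox and 2.83 ± 0.0379 (SD, n = 3) in − dox cells. The difference was 5.01 on the log2 scale (SE 0.698, 95% confidence interval 3.34 to 6.69, adjusted p = 0.0244 over probe sets and 0.0172 over genes, limma), a size that is approximate because the lower group is at background.

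The other probe sets of Cd24a moved the same way. Probe set 1416034_at read 9.06, 6.53 and 6.51 in + dox and 3.19, 3.39 and 3.19 in − dox arrays, a rise of 4.11 (adjusted p = 0.0359). The dimmer 1437502_x_at read 7.07, 4.61 and 4.75 against 2.40, 2.49 and 2.31, a difference of 3.08 that did not pass (adjusted p = 0.0636). The suffix of its name marks probes that can also match other transcripts. All 3 probe sets lay under the lower quartile on every − dox array, so the sizes of their rises cannot be set against each other.

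In all 3 probe sets of Cd24a, + dox array 1 was the highest array, at 164%, 178% and 205% of the mean change of + dox arrays 2 and 3. That was the opposite of its place among the genes called, where its change was a median of 78.5% of that of the other 2 arrays (quartiles 64.0% to 98.2%) and was the smallest of the 3 in 65.5% and the largest in 14.9%. Cd24a included, 9 of the 886 genes had a share at least as high. Without + dox array 1 the difference of 1448182_a_at was 4.13 (adjusted p = 0.00034), and that of 1437502_x_at was 2.28 and passed (adjusted p = 0.00114). The call of 1448182_a_at was lost without + dox array 2 (adjusted p = 0.0621), + dox array 3 (0.0846), − dox array 2 (0.0943) or − dox array 3 (0.11), at differences of 5.0 to 5.54. That of 1416034_at was also lost without each of these 4 arrays and without − dox array 1 (0.0531), at adjusted p-values up to 0.144. Why this array was so high was not tested.

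Thy1, like Cd24a a lipid-anchored surface protein, was not called. Its probe set 1423135_at read 4.15, 4.20 and 4.04 in + dox and 4.09, 4.14 and 4.08 in − dox arrays. The difference was 0.03 with a 95% confidence interval of -0.19 to 0.24 (adjusted p = 0.92). All 6 values lay only just above the lower quartile, which limits what this probe set can show.

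Of 20 measured genes for other lipid-anchored and stem cell surface antigens, 3 rose and 1 fell, beside 4.87% of all genes called. The median change was 0.20 beside 0.01 over all genes. Of the 20, 9 had an unadjusted p under 0.05 in limma, beside 21.7% of all genes. Abcg2, a drug efflux pump that marks side population stem cells, read 11.14, 11.34 and 11.62 in + dox and 9.53, 9.37 and 9.52 in − dox arrays. It rose by 1.89 (3.71-fold, adjusted p = 0.00206 over genes) and passed without any 1 of the 6 arrays, up to an adjusted p of 0.0209. The tetraspanins Cd9 and Cd81 rose by 0.84 (adjusted p = 0.0108) and 0.67 (0.0316), and Lrig1, a membrane protein that restrains receptor tyrosine kinases, fell by 0.67 (0.0162, all over genes). These 3 calls were lost without + dox array 2, + dox array 3, − dox array 2 or − dox array 3, with adjusted p-values up to 0.0598, 0.129 and 0.0781.

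Cd44, the main receptor for hyaluronan, was higher on every + dox array but did not pass the test on all 6 arrays. Probe set 1434376_at read 12.75, 13.45 and 13.48 in + dox and 12.44, 12.52 and 12.53 in − dox arrays. The difference was 0.73 (SE 0.204, adjusted p = 0.125 over probe sets and 0.0986 over genes). The bright probe sets 1423760_at and 1452483_a_at gave differences of 0.79 (adjusted p = 0.123) and 1.29 (0.0961). The last read 11.75, 12.96 and 12.67 in + dox against 11.06, 11.47 and 10.97 in − dox arrays. A further one, 1443265_at, lay under the lower quartile on all 6 arrays and differed by 0.20 (adjusted p = 0.416).

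In the 3 bright probe sets of Cd44, + dox array 1 lay close to the − dox arrays, with 26.2%, 27.2% and 35.4% of the mean change of the other + dox arrays. Without it the differences were 0.97, 1.04 and 1.65, and all 3 passed (adjusted p = 0.00832, 0.00993 and 0.0122). Cd44 and Cd24a thus ranked this array at opposite ends, the lowest + dox array for the first and the highest for the second.

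Among 17 measured genes for hyaluronan enzymes and Cd44 partners, 1 rose and 0 fell, 4 having an unadjusted p under 0.05, with a median change of 0.03. The gene that rose was Has2, a synthase that makes hyaluronan, which read 6.20, 7.74 and 8.09 in + dox and 4.20, 4.52 and 4.46 in − dox arrays. It rose 7.73-fold (2.95 on the log2 scale, adjusted p = 0.025 over genes), with + dox array 1 again the lowest of the 3. The call was lost without + dox array 2, + dox array 3, − dox array 2 or − dox array 3, at adjusted p-values up to 0.107. Mmp14, a membrane-bound protease that can cleave Cd44, differed by -0.63 (adjusted p = 0.0643) and passed without + dox array 1 (-0.76, 0.024).

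The 3 immunoglobulin adhesion molecules changed in different directions. L1cam, which binds other L1cam molecules, integrins and further partners on neurons and tumour cells, rose. Its brightest probe set, 1450435_at, read 9.41, 10.68 and 10.09 in + dox and 7.80, 7.52 and 7.62 in − dox arrays. The means were 10.06 ± 0.636 and 7.65 ± 0.142 (SD, n = 3 each), a rise of 2.41 (SE 0.304, 95% confidence interval 1.69 to 3.14) or 5.33-fold, with an adjusted p of 0.0199 over probe sets and 0.0142 over genes.

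The dim probe set of L1cam, 1421958_at, lay under the lower quartile on all 3 − dox arrays and on + dox array 1, so it bears little on the size of the rise. It read 3.57, 4.43 and 4.77 in + dox and 3.64, 3.48 and 3.53 in − dox arrays, so the groups overlapped through + dox array 1, and the difference was 0.71 (adjusted p = 0.266). Without + dox array 1 the dim probe set differed by 1.05 and passed (adjusted p = 0.0178), and the bright one differed by 2.74 (0.00338). The call of the bright probe set was lost without + dox array 3 (0.094), − dox array 2 (0.0835) or − dox array 3 (0.0999), at 2.35 to 2.40.

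Alcam, which binds other Alcam molecules and the T cell protein Cd6, fell. Probe set 1426300_at read 9.18, 8.70 and 8.16 in + dox and 10.71, 10.28 and 10.05 in − dox arrays, so every + dox array was below every − dox array. Its level fell by 1.67 on the log2 scale (SE 0.286, a 3.17-fold lower level, adjusted p = 0.0415 over probe sets and 0.0305 over genes).

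The other bright probe sets of Alcam fell as well. The strongest fall was in 1437466_at, which read 8.08, 6.91 and 6.64 in + dox and 9.52, 9.51 and 9.57 in − dox arrays, a 5-fold lower level (adjusted p = 0.0307). Probe sets 1426301_at and 1437467_at fell by 1.77 (adjusted p = 0.0295) and fell by 1.95 (0.0264), respectively. The fifth, 1443086_at, lay under the lower quartile on all 6 arrays and differed by -0.36 (0.293). In the 4 that fell, + dox array 1 was the nearest to the − dox arrays, with 52.7% to 60.9% of the change of the other 2. All 4 calls were lost without + dox array 2, + dox array 3, − dox array 2 or − dox array 3, at adjusted p-values of 0.0834 to 0.157, and that of 1426300_at also without − dox array 1 (0.0567). Without + dox array 1 the 4 adjusted p-values lay between 0.000769 and 0.0175.

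Mcam, also called Cd146, is an adhesion molecule of endothelium, pericytes and melanoma cells. It has 1 probe set, 1416357_a_at, which read 6.57, 5.35 and 5.81 in + dox and 8.04, 7.39 and 7.55 in − dox arrays. Both arrays numbered 1 were the highest of their group, and the groups did not overlap. The level fell by 1.75 (SE 0.327, a 3.36-fold lower level, adjusted p = 0.0378 over genes), and over probe sets the same values missed the threshold (adjusted p = 0.0503). Over genes the call was lost without − dox array 1 (0.0508), − dox array 2 (0.0991), − dox array 3 (0.13), + dox array 2 (0.112) or + dox array 3 (0.144), and without + dox array 1 the difference was -2.08 (0.00814).

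Relatives and partners of these adhesion molecules also moved both ways. Of 22 further immunoglobulin adhesion genes 1 rose and 3 fell, beside 4.87% of all genes called, with a median change of 0.02. Of the 22, 6 had an unadjusted p under 0.05 in limma, beside 21.7% of all genes. Jam2, a tight junction protein, read 8.42, 8.67 and 8.40 in + dox and 6.61, 5.91 and 6.31 in − dox arrays and rose 4.66-fold (adjusted p = 0.00365 over genes). Cadm1, Mpzl1 and Jam3 fell by 1.71, 1.11 and 0.59 (adjusted p = 0.0271, 0.0378 and 0.033), and the mean of both Jam3 probe sets did not pass (0.0956). The call of Jam2 passed without any 1 array (adjusted p up to 0.031), while those of the other 3 were lost without + dox array 2, + dox array 3, − dox array 2 or − dox array 3, that of Mpzl1 also without − dox array 1, at adjusted p-values up to 0.113, 0.142 and 0.133.

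Of 18 genes for the L1 family and L1cam partners 1 rose and 3 fell, beside 4.87% of all genes called, with a median change of -0.06. Of the 18, 7 had an unadjusted p under 0.05 in limma, beside 21.7% of all genes. Nrcam, a close relative of L1cam, moved the other way from it and read 8.11, 7.61 and 7.61 in + dox and 9.36, 9.30 and 9.33 in − dox arrays. It fell by 1.55 (2.93-fold, adjusted p = 0.0065 over genes) and passed without any 1 array, up to an adjusted p of 0.0471. Fgfr1, a growth factor receptor that L1cam can engage, fell by 1.27 (adjusted p = 0.0158), and Itgb3, the integrin subunit that binds L1cam, rose by 1.08 from levels between 3.64 and 4.20 without doxycycline (0.0461). Ank3, the ankyrin that ties the L1 family to the cytoskeleton, fell by 1.05 in its brightest probe set (0.0474), but 2 of its 5 other probe sets changed in the opposite direction and the mean of all 6 did not pass (0.123). These 3 calls were lost without + dox array 2, + dox array 3, − dox array 2 or − dox array 3, and that of Itgb3 also without − dox array 1, at adjusted p-values up to 0.0781, 0.153 and 0.168.

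**Figure D3:**
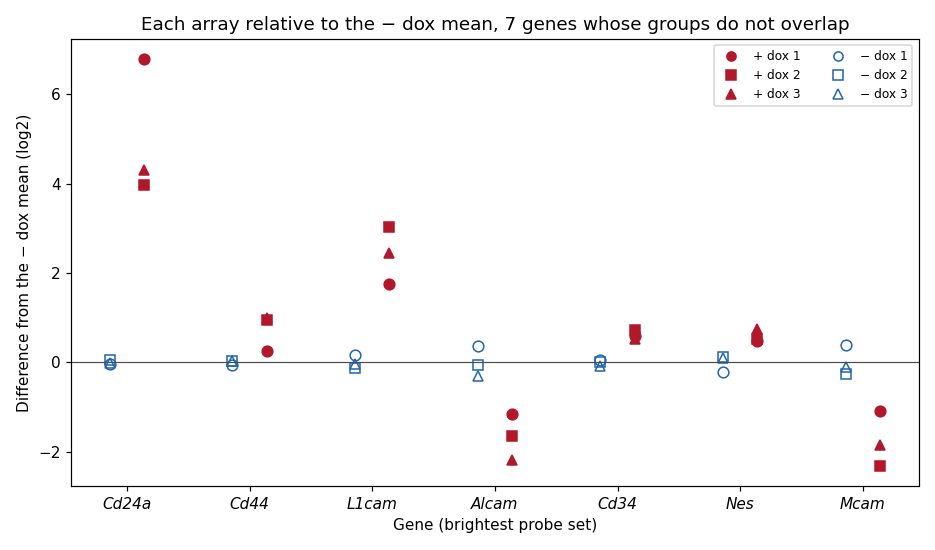
Level of each array minus the mean of the 3 − dox arrays, in log2 units, for the 7 genes whose groups did not overlap (brightest probe set; filled, + dox; open, − dox; the shape gives the array number). In Cd24a + dox array 1 is the farthest from the − dox arrays, and in Cd44, L1cam, Alcam, Nes and Mcam it is the nearest of the 3.

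Cd34, a sialomucin of blood stem cells and endothelium, was called but dim. Probe set 1416072_at read 3.66, 3.80 and 3.59 in + dox and 3.13, 3.08 and 2.99 in − dox arrays. The difference was 0.62 (SE 0.0994, adjusted p = 0.0354 over probe sets and 0.026 over genes), and all 6 values lay under the lower quartile, so no fold is given. Here + dox array 1 did not stand apart, at 94.4% of the change of the other 2. The call over genes was lost without + dox array 2 (adjusted p = 0.104), + dox array 3 (0.0814), − dox array 2 (0.0945) or − dox array 3 (0.117), and the gene was not tested at all once the dimmest 20% of probe sets were left out.

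Prom1, the pentaspan protein that carries the Cd133 epitope, was not called and lay under the lower quartile on all 6 arrays. Probe set 1419700_a_at read 3.48, 3.26 and 3.33 in + dox and 3.42, 3.50 and 3.33 in − dox arrays. The groups overlapped, and the difference was -0.06 with a 95% confidence interval of -0.31 to 0.19 (adjusted p = 0.828).

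Among 10 measured sialomucins, their binding partners and prominins, 1 rose and 0 fell, 2 having an unadjusted p under 0.05, with a median change of 0.02. The gene that rose was Siglecg, a sialic acid-binding receptor, by 1 log2 unit from 4.94 ± 0.07 (SD, n = 3, adjusted p = 0.0384 over genes), a call that was lost without any 1 array other than + dox array 1 (adjusted p up to 0.143). Podxl, the podocyte relative of Cd34, differed by -0.70 (adjusted p = 0.21).

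Ngfr, the p75 receptor for neurotrophins and a standard surface marker of neural crest cells, was not called, and its probe sets did not share a direction. Probe set 1454903_at read 7.37, 7.06 and 7.72 in + dox and 7.79, 7.96 and 7.55 in − dox arrays, so + dox array 3 lay within the range of the − dox arrays. The difference was -0.38 with a 95% confidence interval of -0.85 to 0.08 (adjusted p = 0.364). The other probe sets, 1450177_at and 1421241_at, differed by -0.07 (adjusted p = 0.877) and 0.13 (0.826), with overlapping groups in both. It was the only gene of the 6 with several probe sets whose probe sets differed in sign.

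None of the 14 measured neurotrophins, their receptors and receptor partners was called, and 3 had an unadjusted p under 0.05 in limma, with a median change of 0.03. The nearest to the threshold were Sorcs2, a sortilin-family receptor for immature neurotrophins, at 1.15 (adjusted p = 0.0549 over genes), and Maged1, an adaptor of Ngfr, at -0.77 (0.0856). Sorcs2 read 8.42, 9.31 and 9.09 in + dox and 7.89, 7.51 and 7.98 in − dox arrays. Without + dox array 1 both passed, Sorcs2 at 1.41 (0.0102) and Maged1 at -0.99 (0.00936). Likewise 0 of 17 further neural crest receptors and surface proteins were called, 5 of them with an unadjusted p under 0.05, among them Gfra1 at -1.38 (0.0865) and Erbb3 at 1.05 (0.113). Gfra1 passed without + dox array 1 (-1.81, 0.00435) and Erbb3 without − dox array 1 (1.35, 0.0312).

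Nes was higher on every + dox array in all 3 of its probe sets, of which 2 passed. Its brightest, 1449022_at, read 10.79, 10.84 and 11.06 in + dox and 10.10, 10.42 and 10.40 in − dox arrays, a difference of 0.59 (adjusted p = 0.0763 over probe sets and 0.0573 over genes). The least variable, 1418289_at, read 10.73, 10.77 and 10.71 against 10.04, 10.10 and 10.09 and rose by 0.66 (SE 0.0834, adjusted p = 0.0201). Probe set 1453997_a_at rose by 0.72 (0.033). Whether Nes counts as called thus depends on the probe set: the mean of all 3 differed by 0.66 and passed over genes (0.0151). The calls of 1418289_at and 1453997_a_at were lost without + dox array 2, + dox array 3, − dox array 2 or − dox array 3 (adjusted p 0.0779 to 0.144), and the latter also without − dox array 1 (0.051).

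Of 12 other intermediate filament genes, 0 rose and 1 fell, with a median change of -0.07 and 6 at an unadjusted p under 0.05. Nefl, the light neurofilament chain, read 9.65, 8.86 and 7.61 in + dox and 10.81, 12.06 and 11.62 in − dox arrays and fell by 2.79 (adjusted p = 0.0433), and its partner Nefm differed by -1.63 (0.0884) and passed without − dox array 1 (-2.00, 0.0375). Of 24 neural crest transcription factors 0 rose and 1 fell, with a median of -0.05 and 5 at an unadjusted p under 0.05. Pax7, a factor of the early neural crest, fell by 0.98 from 4.89 ± 0.151 to 3.91 ± 0.0603 (SD, n = 3 each, adjusted p = 0.00936), and Id1 differed by 1.76 (0.0522) and passed without + dox array 1 (1.96, 0.0451). The + dox values of Pax7, 3.90, 3.85 and 3.97, lay near the lower quartile, 1 of them under it, so the size of its fall is approximate. The call of Nefl was lost without + dox array 2, + dox array 3, − dox array 2 or − dox array 3 and that of Pax7 without + dox array 2 or − dox array 2, at adjusted p-values up to 0.151 and 0.0539.

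Several of the 10 genes also mark other cell types, whose markers were counted for that reason. Cd34 and Mcam are also used to mark endothelium. Of 11 endothelial markers 0 were called and 1 had an unadjusted p under 0.05, with a median change of 0.07 and a mean level per array of 4.5 to 4.76 in + dox and 4.38 to 4.42 in − dox cells. Emcn and Vwf lay under the lower quartile on all 6 arrays, and Tek read 7.01, 4.58 and 4.49 against 3.87, 3.80 and 3.58 (adjusted p = 0.219), so like Cd24a it was highest on + dox array 1, without which it differed by 0.78 and passed (0.0222), while Tie1 differed by 0.32 (0.298). Of 11 blood cell markers 0 were called and 0 had an unadjusted p under 0.05, with a median change of 0.06 and mean levels of 4.65 to 4.88 and 4.42 to 4.57. Ptprc, the common leukocyte antigen, and Hba-a1 lay under the lower quartile on all 6 arrays, and Cd3g and Itgam differed by 0.37 (0.243) and 1.17 (0.301). Itgam read 3.51, 3.95 and 5.84 in + dox arrays and differed by 0.47 without + dox array 3 (0.27), and Cd3g differed by 0.22 without + dox array 1 (0.397). Of 12 fibroblast and pericyte markers 1 rose and 0 fell, with a median change of -0.02, mean levels of 5.97 to 6.12 and 6.02 to 6.25 and Lum under the lower quartile on all 6 arrays. An unadjusted p under 0.05 was found in 4 of these 12. The gene that rose was Cspg4, a proteoglycan that pericytes and melanoma cells share, by 1.38 (adjusted p = 0.0245, lost without + dox array 2, + dox array 3, − dox array 2 or − dox array 3, up to 0.108), and Dcn differed by 0.85 (0.0525) and passed without + dox array 1 (1.01, 0.0191). Of 11 neural and glial markers, a setting in which Thy1 and Nes are also used, 0 rose and 1 fell, with a median change of 0.15, mean levels of 5.79 to 6.13 and 5.58 to 5.64 and Snap25 and Olig2 under the lower quartile on all 6 arrays. An unadjusted p under 0.05 was found in 5 of these 11, beside 21.7% of all genes. Mbp, a myelin protein, fell by 0.91 in its brightest probe set (adjusted p = 0.0461, lost without any 1 array other than + dox array 1, up to 0.165), but 1 of its 7 other probe sets went the other way and the mean of all did not pass (0.142). Stmn2, a neuronal protein of growing processes, read 9.75, 11.93 and 11.80 in + dox and 8.79, 8.68 and 8.68 in − dox arrays. It differed by 2.44 (adjusted p = 0.06) and passed without + dox array 1 (3.15, 0.000199). The part of any such cells in the changes of the 10 genes was not tested.

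**Figure D4:**
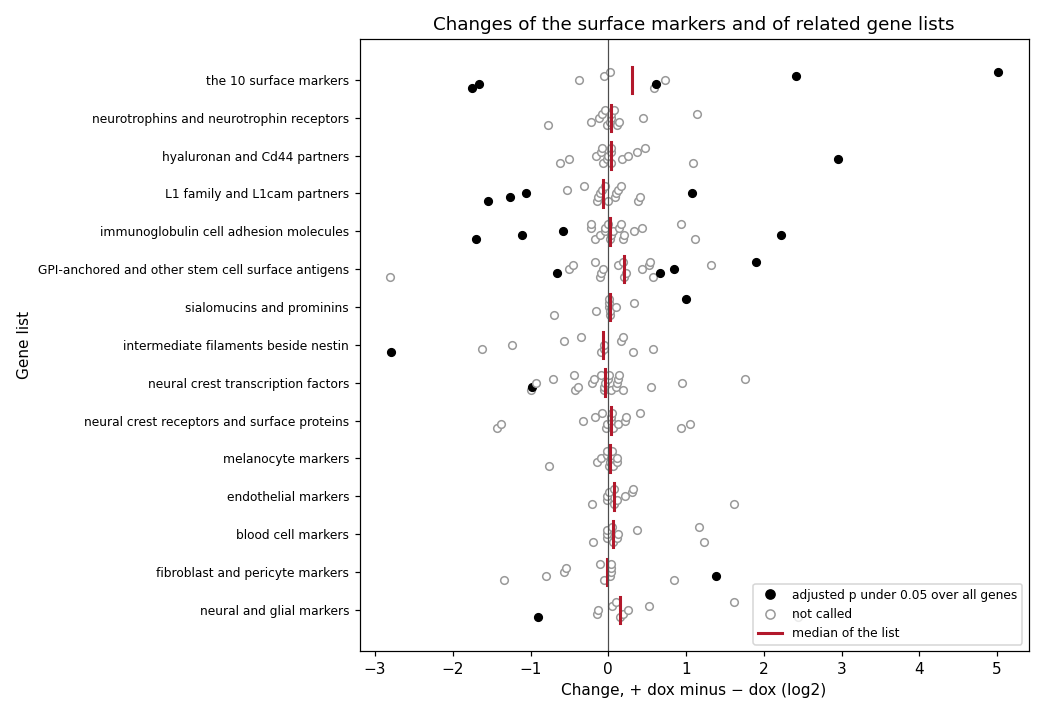
Change of every measured gene, + dox minus − dox in log2 units, for the 10 surface markers and the 14 lists of partners, relatives and cell type markers, with filled points for genes called over all genes and a red bar for the list's median. The 10 markers spread from -1.75 to 5.01 around a median of 0.31, and the medians of the other lists lie between -0.07 and 0.20.

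Over the 14 other lists 18 of 206 measured genes were called, or 8.74%, beside 4.87% of all genes.

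Each call among the 10 genes depended on which arrays entered. None of the 5 genes called passed in all 6 fits over genes that left out 1 array. The share of all called genes that passed in all 6 was not counted. Some of these fits called far fewer genes in all, as the last section gives, so this count does not set the 10 genes apart. With both arrays numbered 1 left out, 7 of the 10 were called over genes, beside 20.1% of all genes in that fit: Cd24a (3.23, adjusted p = 4.34e-05, here read by 1416034_at), Cd44 (0.94, 0.00224), L1cam (2.82, 0.000364), Cd34 (0.66, 0.014) and Nes (0.54, 0.0269) were higher, and Alcam (-1.74, 0.00212) and Mcam (-1.89, 0.000983) were lower. The groups of the 5 genes called on all 6 arrays did not overlap, so leaving out arrays could not turn their direction. Ngfr, Prom1 and Thy1 were again not called, with adjusted p-values of 0.384, 0.578 and 0.969.

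**Figure D5:**
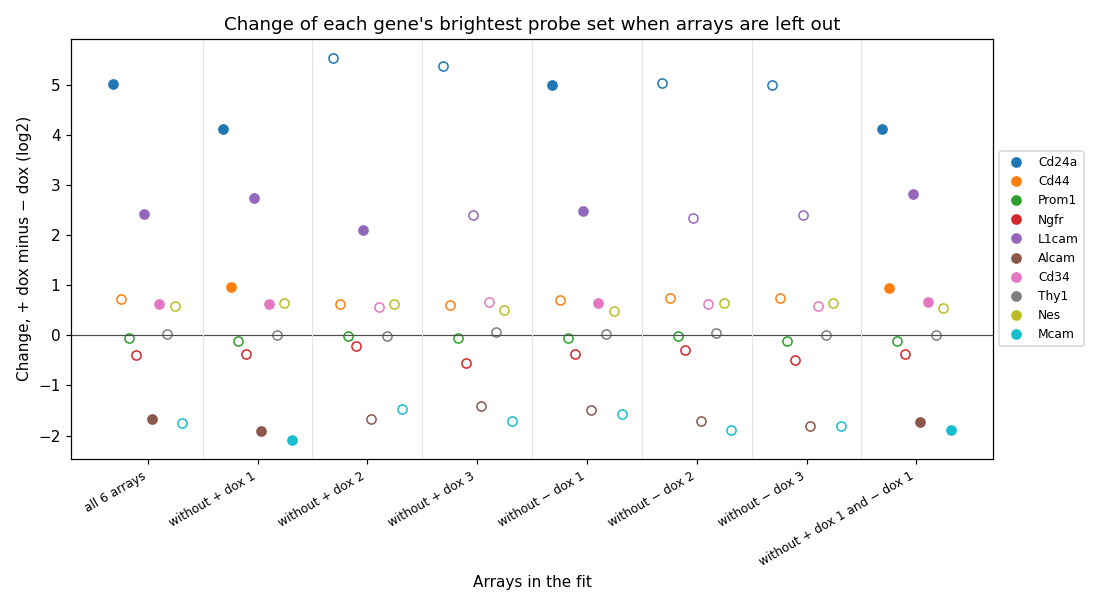
Change of the brightest probe set of each gene, + dox minus − dox in log2 units, with all 6 arrays, without each array in turn and without both arrays numbered 1; filled points passed an adjusted p of 0.05 over all probe sets. Cd24a stays between 4.12 and 5.54 throughout, and the 6 filled points at the far right (Cd24a, Cd44, L1cam, Cd34, Alcam and Mcam) compare with 4 at the far left, where Mcam at an adjusted p of 0.0503 and Cd44 are open.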

How the data were processed

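Total RNA of 3 + dox and 3 − dox samples, grouped by their labels, was hybridised to Affymetrix mouse expression arrays. The authors deposited log2 expression values from Chipster, where RMA corrects background, quantile normalises the arrays and summarises each probe set; its version and chip definition are not given in the sources used here. RMA gives the arrays 1 distribution, which would hide a change of all genes together. The table held 45101 probe sets, of which 64 controls were left out. Gene symbols came from the platform annotation, updated through Entrez identifiers with RefSeq (GRCm38.p6): 34945 probe sets had 1 symbol, 34741 of them an identifier in RefSeq, 932 had several symbols, and 0 symbols changed. Each gene was represented by its probe set with the highest mean, chosen anew when an array was left out.

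The comparison of + dox with − dox was fitted in limma (version 3.58.1, R version 4.3.3, two-sided, eBayes after lmFit with no covariate) over 18193 genes and again over 45037 probe sets, with Benjamini-Hochberg adjustment over each and a threshold of 0.05. The tests were checked on simulated data. The 10 genes, the lists and the alternatives were chosen with earlier results of these data known. Named in each list were at most 4 called genes, those of largest change, or, with fewer than 2 called, the 2 of smallest p; Tyr, Mlana, Gpr143, Tyrp1, Dct, Pmel, Sox10, Emcn, Vwf, Ptprc, Hba-a1, Lum, Snap25 and Olig2 were added for their levels. Alternatives tried were a block on the replicate number, another probe set or the mean of all probe sets per gene, a filter on the dimmest 20%, trend and robust settings, quantile or median scaling, arrays left out, and an adjusted p under 0.01.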

Additional observations from a re-analysis of the deposited data

How the results depend on the processing

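With the replicate number as a block, 303 genes and 466 probe sets were called (886 and 1138 without it), with 3 of the 10 marker genes (Cd24a, Alcam and Mcam) and 4 of their 24 probe sets. Same-numbered arrays did not deviate together (correlations of -0.118, -0.22 and 0.0817), so they were not treated as paired. At an adjusted p under 0.01, 128 genes and 136 probe sets passed, with 0 marker genes and 0 marker probe sets, while 7 marker genes had an unadjusted p under 0.05 (21.7% of all genes). Without both arrays numbered 1 the counts were 3649 genes, 5142 probe sets and 16 marker probe sets. Leaving out 1 array at a time gave 118 to 1650 genes, 111 to 2351 probe sets, 0 to 6 marker genes and 0 to 16 marker probe sets. The fewest genes were called without − dox array 3 and the most without + dox array 1; each such fit has 5 samples, and the cause of the spread was not tested. Directions turned only in differences near 0: Thy1 (-0.0083 to 0.0717), the Ngfr probe sets 1450177_at (-0.21 to 0.0567) and 1421241_at (-0.105 to 0.28) with 1 array left out, and 1450177_at (0.03) without both arrays numbered 1. Other ways to choose or average probe sets, the filter on dim probe sets, trend and robust settings, quantile and median scaling kept each of the 4 counts within 1.5 times and turned no direction. Levels near the lower quartile limit what can be said of Cd34, Prom1 and Thy1.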
